A study of Mus musculus with 2 samples.

Results

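The RNA of classical dendritic cells of type 2 (cDC2) was compared between 2 sets of 3 replicates in a single-cell experiment on young mice. The cells are 5562 of the 15480 cells that carried a single hashtag, at least 500 genes and at most 10% mitochondrial counts. They were selected on raw counts of unique molecular identifiers (UMIs, each the trace of 1 captured RNA molecule): Sirpa of at least 2, Xcr1 plus Clec9a of at most 1, Fscn1, Prdm16 and Cd3e of at most 1 each, and the 3 C1q genes together under 10. Hashtags 2, 4 and 5 (antibodies B0302, B0304 and B0305) held 455, 464 and 375 such cells, and hashtags 6, 8 and 9 (B0306, B0308 and B0309) held 1223, 1061 and 1984. They made up 30.6%, 28.7% and 20.02% of the cells of hashtags 2, 4 and 5 past those filters and 39.6%, 41.7% and 40.8% of those of hashtags 6, 8 and 9. The 2 trios were themselves chosen by values measured in these data, so differences between them are described with their errors and no p-value.

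Sorted CD3-B220-CD11c+MHC-II+ cells came from mesenteric lymph nodes (mLN) and from small intestinal lamina propria (siLP) of untreated 15-day-old Gm38411-iCre-hCD2 reporter mice. The design lists 3 biological replicates for each of those tissues, and every replicate carried its own hashtag antibody. All 6 replicates shared genotype, age and absence of treatment and were run as 1 pooled gene expression library. The labels do not tie a hashtag to mLN or siLP, so no tissue is named here for any hashtag, and a difference between the trios cannot be told apart from whatever else the trios do not share. Each hashtag is 1 replicate, and cells of a hashtag are not replicates.

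cDC2 present antigen mainly to CD4 T cells. They carry the inhibitory receptor Sirpa, many depend on the transcription factor Irf4, and part of the lineage also needs Notch2 signalling. In the intestine they take up material from the lumen and the tissue, and on maturation they raise Ccr7, the chemokine receptor that guides them through lymph to the draining node. Their maturation runs in good part through NF-kB, a family of transcription factors that is released by microbial sensors and by cytokine receptors and switches on costimulatory ligands, cytokines and its own inhibitors. Cells that take part in it also change glycolysis, sterol synthesis and the proteases of the endosome.

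Stretches upstream of 4 genes that were higher in hashtags 6, 8 and 9 are printed because 17 of 24 NF-kB subunits and regulators were higher there and 3 of the 4 genes hold an NF-kB pattern. They are the 250 bases before a RefSeq start (GRCm38.p6), 5′ to 3′ on the strand of the gene, and capitals mark letters that matched GGNNTTTCC (NF-kB, a form set after matches to a longer one had been seen), TGANTCA (AP-1) or TGACGTCA (the cyclic AMP response element, CRE), each searched on both strands. The 3 patterns cannot overlap one another as the same letters. Cxcl2, a chemokine for neutrophils, has 2 NF-kB matches (chr5:90903649-90903898, plus strand). Tnfaip3, which encodes the NF-kB inhibitor A20, has 2 NF-kB matches and an AP-1 match (chr10:19015411-19015660, minus strand). Rel, which encodes the subunit c-Rel, has an NF-kB match (chr11:23770970-23771219, minus strand). H2-Aa, the alpha chain of an MHC class II molecule, has a CRE match (chr17:34287824-34288073, minus strand).
Cxcl2: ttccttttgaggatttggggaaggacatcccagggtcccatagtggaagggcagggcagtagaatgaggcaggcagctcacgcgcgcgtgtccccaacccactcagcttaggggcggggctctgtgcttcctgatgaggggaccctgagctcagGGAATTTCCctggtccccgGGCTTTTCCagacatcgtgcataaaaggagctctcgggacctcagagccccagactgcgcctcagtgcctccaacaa
Tnfaip3: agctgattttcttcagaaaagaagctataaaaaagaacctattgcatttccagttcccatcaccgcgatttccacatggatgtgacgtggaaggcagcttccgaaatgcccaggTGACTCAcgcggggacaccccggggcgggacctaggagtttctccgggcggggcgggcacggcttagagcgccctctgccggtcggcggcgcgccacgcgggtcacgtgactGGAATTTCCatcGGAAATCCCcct
Rel: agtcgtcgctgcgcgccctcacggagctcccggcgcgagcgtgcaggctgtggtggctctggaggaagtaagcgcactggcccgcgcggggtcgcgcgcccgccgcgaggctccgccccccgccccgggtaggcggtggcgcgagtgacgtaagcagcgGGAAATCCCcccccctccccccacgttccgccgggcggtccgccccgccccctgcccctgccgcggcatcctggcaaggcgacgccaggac
H2-Aa: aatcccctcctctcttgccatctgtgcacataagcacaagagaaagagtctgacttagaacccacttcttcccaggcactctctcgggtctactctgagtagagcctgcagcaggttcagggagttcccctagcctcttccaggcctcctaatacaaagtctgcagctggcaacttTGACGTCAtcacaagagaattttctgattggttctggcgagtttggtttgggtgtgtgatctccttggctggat

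A match is only a run of letters and not evidence of binding. Of the 12683 genes in the comparison, 9663 had an entry in the RefSeq promoter table, and 6.34% of these held the NF-kB pattern, 5.38% the AP-1 pattern and 3.05% the CRE pattern. Among 14 NF-kB regulators that were higher in hashtags 6, 8 and 9 and had an entry, 6 held the NF-kB pattern and 4 the AP-1 pattern. Among 17 such immediate early genes, 2 held the NF-kB pattern, 0 the AP-1 pattern and 2 the CRE pattern. For all genes higher in hashtags 6, 8 and 9 the shares were 7.44%, 8.07% and 3.4%, and for all genes lower there they were 6.8%, 4.65% and 2.6%. The NF-kB pattern was in 3 of 6 chemokines and 1 of 7 cytokines that were higher there and had an entry. Of the 12 highest genes named below it was in 1 of 10 with an entry, and of the 12 lowest in 1 of 9. Its form was set after matches had been seen, so no enrichment is read from these counts.

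Depth and RNA composition differed between the trios, and every result below is to be read beside that. The median UMI count per cDC2-gated cell was 6439 to 7392 in hashtags 2, 4 and 5 and 13099 to 13617 in hashtags 6, 8 and 9, while the median number of genes was 2661.5 to 2855 and 2974 to 3079.5. Median mitochondrial shares were 3.34% to 3.88% and 1.42% to 1.45%. The nuclear RNA Malat1 took 2.47% to 2.57% and 1.78% to 1.95% of UMIs, and ribosomal protein genes 13.7% to 14.4% and 17.5% to 17.7%. Of the cells called to a hashtag, 34.3% to 35.2% in hashtags 2, 4 and 5 exceeded the mitochondrial limit, against 6.32% to 9.98% in the other trio. The part of these differences in the results was not tested. In summed counts, fewer cells with an RNA and less RNA per cell cannot be told apart.

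**Figure D1:**
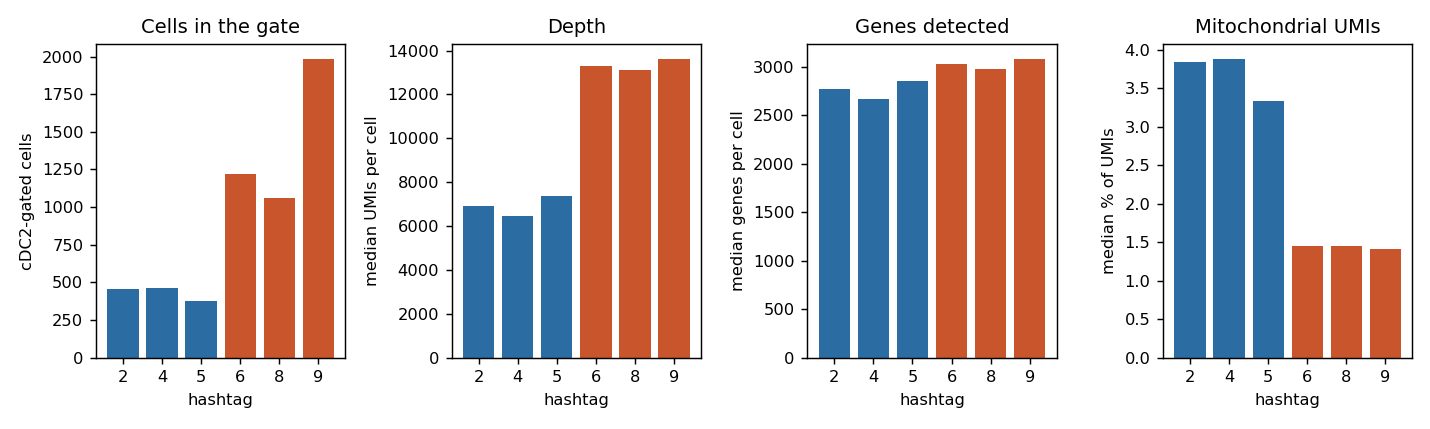
Bars give, for each hashtag, the number of cDC2-gated cells and their medians of UMIs per cell, genes per cell and mitochondrial share of UMIs. Hashtags 6, 8 and 9 (orange) lie above hashtags 2, 4 and 5 (blue) in cells and UMIs and below them in mitochondrial share.

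The gate itself sat at the low end of the counts. Sirpa was at exactly 2 UMIs, just inside the limit, in 137, 133 and 117 cells of hashtags 2, 4 and 5 and in 391, 364 and 725 cells of hashtags 6, 8 and 9. Just outside, 133, 170, 185, 475, 514 and 951 cells in the same order of hashtags had 1 Sirpa UMI and met every other limit. When every cell was thinned to 3000 UMIs before gating, the gate held 199 to 240 cells of hashtags 2, 4 and 5 and 221 to 454 of hashtags 6, 8 and 9. These were 19.3%, 17.2% and 13.4% of the thinned cells of hashtags 2, 4 and 5 and 10.8%, 9.64% and 10.02% of those of hashtags 6, 8 and 9, so the order of the shares of gated cells was reversed. Itgax, which encodes the CD11c of the sort, was at 158 to 181 CPM (counts relative to library size, scaled by the trimmed mean of M-values, TMM) in hashtags 2, 4 and 5 and 273 to 294 in hashtags 6, 8 and 9. The cDC1 genes Xcr1 and Clec9a were at 7.51 CPM or lower in all 6. The gate held their sum at 1 UMI or less per cell, so nothing is read from that level.

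Of 12674 genes outside the gate, 2131 (16.8%) were at least 2-fold higher in hashtags 6, 8 and 9 and 2763 (21.8%) at least 2-fold lower, with the 3 levels of a trio all above those of the other. These genes are called higher and lower from here on. Since the trios were picked on these data, nothing is read from those shares themselves. Each count of called genes in a list below is to be read beside these 16.8% and 21.8%. With cells thinned to 3000 UMIs before the gate, 1200 genes were called higher and 1508 lower. Higher genes made up 43.5% of the called ones with TMM scaling and 45.7% with relative log expression or DESeq2, but 12.4% with library size alone, which moved the median log2 fold change of all genes from -0.06 to -0.92. Fold changes are therefore given on the TMM scale, and the library size value stands beside each list whose direction turns with it. Among loci of at most 20000 bases, 17.6% of 5803 genes were called higher and 19.8% lower. The median log2 fold change moved with the length of the locus, from 0.192 in the shortest of 4 length bins to -0.255 in the longest, and the sources used here do not state the intron setting of the counting.

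Replicates within a trio were close. Of 2922 genes with at least 50 CPM in hashtags 2, 4 and 5, the highest and the lowest hashtag differed by 2-fold or more in 4, and of 3407 in hashtags 6, 8 and 9 in 2. The latter were Hspa1a and Hspa1b, chosen after their values were seen, which encode the heat shock protein Hsp70. Hspa1b was at 189, 227 and 364 CPM in hashtags 2, 4 and 5 and at 50, 61.8 and 182 CPM in hashtags 6, 8 and 9, so hashtag 9 came up to hashtag 2. Of 12 heat shock genes, 3 were called lower and 1 higher, beside 21.8% and 16.8% of all genes. Their median log2 fold change of -0.05 was close to the -0.06 of all genes, so nothing is read from this list as a whole.

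Of the 12 highest genes with at least 50 CPM, Tnip3 was the most abundant in hashtags 6, 8 and 9. Tnip3 (ENSMUSG00000044162, mm10 chr6:65525313-65634040) encodes a binding partner of A20. It was at 43.5, 48.9 and 54.5 CPM in hashtags 2, 4 and 5 and at 1684, 2002 and 1651 CPM in hashtags 6, 8 and 9. The groups lay far apart, with a log2 fold change of 5.18 ± 0.10 (standard error, SE, n = 3 hashtags a trio, as for all fold changes here). Flrt3, a neuronal adhesion protein, was at 8.07, 5.34 and 9.76 CPM against 309.7, 348 and 268 CPM (log2 fold change 5.33 ± 0.15). Hilpda, a lipid droplet protein of the hypoxia response, was at 26.8, 24.2 and 22.1 CPM against 787, 791 and 656 CPM (4.93 ± 0.10). For all 3 genes every hashtag of 6, 8 and 9 lay above every hashtag of 2, 4 and 5. The rest of the 12 highest were Lsmem1, Gm12865, Zfp667, Gm17056, Hba-a1, Ramp3, Tnfsf9, Ccr1 and Jdp2, with log2 fold changes of 4.75 to 5.61.

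Hba-a1, a haemoglobin gene of red cells, had most of its UMIs in very few cells. The 10 highest cells held 96.3%, 96.2% and 95.3% of its UMIs in hashtags 6, 8 and 9, and the highest single cell of each had 1372, 1731 and 1710 UMIs. In hashtags 2, 4 and 5 no cell had more than 2. The share of cells with any Hba-a1 UMI was 5.6% to 6.13% and 7.63% to 8.62%. Without cells that carried Ccr7, its log2 fold change was 0.99. By contrast the 10 highest cells held 3.5% to 7.44% of the Tnip3 UMIs in hashtags 6, 8 and 9.

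Genes lower in hashtags 6, 8 and 9 included targets of Notch and several genes better known from neurons. Dscam (ENSMUSG00000050272, mm10 chr16:96590840-97170752), an adhesion molecule of neurons, was at 849, 808 and 1088 CPM in hashtags 2, 4 and 5 and at 55.4, 23.6 and 30.6 CPM in hashtags 6, 8 and 9 (log2 fold change -4.64 ± 0.23). Dtx1, a ubiquitin ligase and target of Notch, was at 37.4, 26.7 and 37.8 CPM against 0.878, 0.593 and 1.01 CPM (-5.26 ± 0.21). Hes1, a classical Notch target, was at 42.1, 41.9 and 40.7 CPM against 3.99, 5.14 and 2.89 CPM (-3.44 ± 0.16). Notch2 itself, the receptor, was at 168 to 183 CPM against 84.7 to 105 CPM and did not reach 2-fold. The 12 lowest genes with at least 50 CPM were Bex6, Gfra2, Tmem132c, Dscam, Dpp10, Pard3b, Ripor2, Zfp521, Slamf6, Gm42477, Cacnb2 and Cd37, with log2 fold changes of -5.18 to -3.92.

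**Figure D2:**
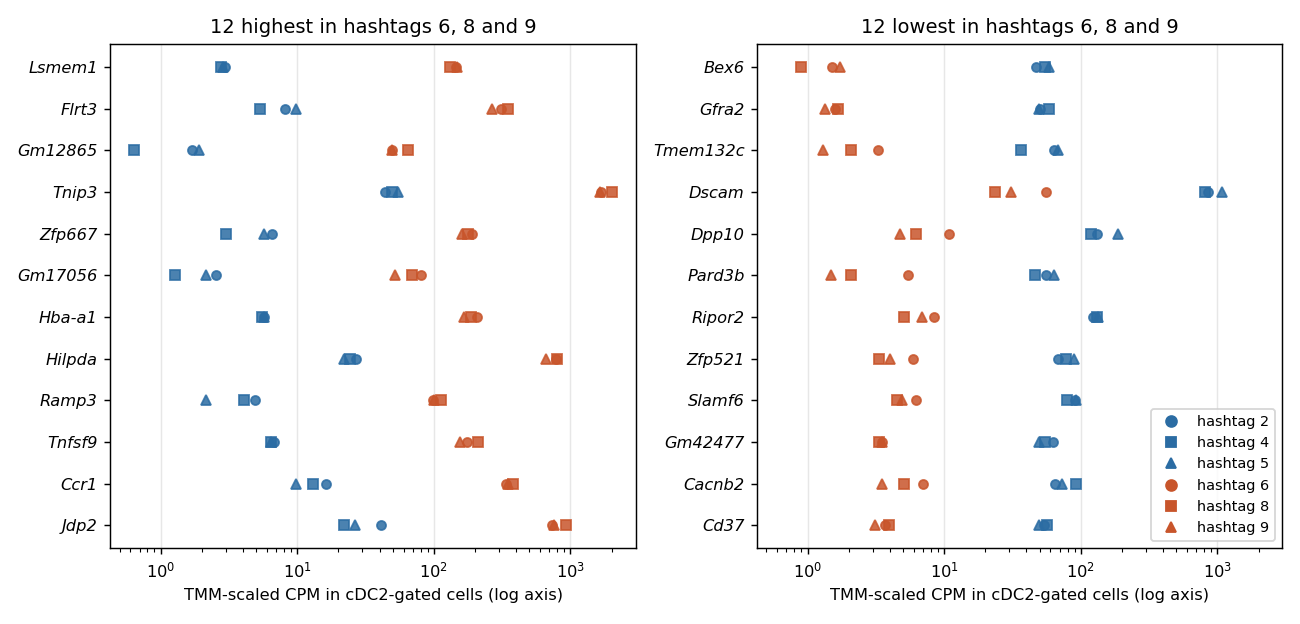
Each point is the TMM-scaled CPM of 1 hashtag in cDC2-gated cells on a log axis, for the 12 highest and the 12 lowest genes with at least 50 CPM in a trio. For every gene drawn the 3 points of hashtags 6, 8 and 9 (orange) lie apart from those of hashtags 2, 4 and 5 (blue).

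Markers of cDC2 went both ways, beside 16.8% called higher and 21.8% lower among all genes. Of 25 measured, 9 were called higher (Itgam, Itgae, Cd24a, Cd209a, Mgl2, Plet1, Irf4, Tnip3 and Cd101) and 10 lower (Esam, Clec4a4, Cx3cr1, Ccr2, Sirpb1a, Sirpb1b, Sirpb1c, Ltb, Dtx1 and S100a4), with a median log2 fold change of -0.37, against -0.06 for all genes. Itgae, which encodes the integrin CD103 that binds E-cadherin, was at 5.31, 8.12 and 12.4 CPM in hashtags 2, 4 and 5 and at 146, 170.2 and 154 CPM in hashtags 6, 8 and 9 (4.21 ± 0.16). Plet1, a surface protein of some intestinal dendritic cells, was at 11.7, 12.4 and 7.38 CPM against 252, 289 and 294 CPM (4.72 ± 0.13). Irf4 was at 66.7, 56.6 and 61.4 CPM against 443, 509 and 458 CPM (2.93 ± 0.08). These 3 genes did not overlap between the trios.

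The lower cDC2 markers included several surface proteins and a calcium-binding protein. Esam, an adhesion molecule, was low throughout, at 8.92, 6.84 and 10.7 CPM against 4.23, 2.17 and 2.26 CPM (-1.62 ± 0.28). Clec4a4, the antigen of the antibody 33D1, was at 67.7, 59.8 and 66.6 CPM against 10.9, 11.7 and 9.76 CPM (-2.60 ± 0.10). S100a4, a calcium-binding protein of motile cells, was at 939, 1008 and 985 CPM against 156, 96.8 and 112 CPM (-3.01 ± 0.13). All 3 were lower in every hashtag of 6, 8 and 9. Cd4, Notch2, Clec10a, Cd7, Itgax and Klf4 stayed below 2-fold.

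Sirpb1a, Sirpb1b and Sirpb1c encode activating receptors of the same family. Of 7 genes of the family and its partners 3 were called lower and 1 higher, beside 21.8% and 16.8% of all genes. Sirpb1a was at 173, 248 and 178 CPM in hashtags 2, 4 and 5 and at 28.7, 33 and 25.3 CPM in hashtags 6, 8 and 9 (-2.80 ± 0.14). Sirpa itself was at 382 to 418 CPM and 339.8 to 375 CPM, a level that the gate sets in part. The higher gene was Tyrobp, the adaptor DAP12 that such receptors signal through, at 395 to 433 CPM and 1274 to 1456 CPM (1.72 ± 0.07). The Sirpb1 genes are near copies of one another, so the split of reads among them is uncertain.

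Of 24 NF-kB subunits and regulators, 17 were called higher, 6 were not called and 1, Traf2, was lower, with a median log2 fold change of 1.64. Among all genes 16.8% were called higher and 21.8% lower. Rel was at 492, 422 and 578 CPM in hashtags 2, 4 and 5 and at 3985, 4199 and 3777 CPM in hashtags 6, 8 and 9, which is 8.01-fold higher. The inhibitor Tnfaip3 was at 111, 97.5 and 124 CPM against 889, 1079 and 879.8 CPM (3.10 ± 0.10). Bcl2l1, which encodes the survival protein Bcl-xL, was at 19.1, 12.6 and 13.6 CPM against 273 to 322 CPM (4.31 ± 0.12). The subunit, the inhibitor and the survival gene thus stood on the same side, and the list median was 0.78 with library size alone.

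Immediate early genes, which are transcribed within minutes of a stimulus, had the highest median of all lists, at 2.30, with 19 of 24 called higher and 1, Klf2, lower. Nr4a3, a nuclear receptor, was at 107, 68.8 and 133 CPM in hashtags 2, 4 and 5 and at 2699, 2801 and 2386 CPM in hashtags 6, 8 and 9 (4.68 ± 0.17). Atf3, a stress-induced factor, was at 72.6, 60.5 and 94.2 CPM against 1483, 1540.2 and 1470.4 CPM (4.31 ± 0.12). Such genes are also induced by handling of tissue and cells, and the part of handling in these values was not tested.

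Cytokines and chemokines had list medians of 1.68 and 1.72. Of 18 cytokines 11 were called higher and 1 lower, and of 15 chemokines 8 higher and 2, Ccl5 and Ccl9, lower. Among all genes 16.8% were called higher and 21.8% lower. Il1b was at 142, 129 and 113 CPM in hashtags 2, 4 and 5 and at 3025, 3817 and 2872 CPM in hashtags 6, 8 and 9 (4.66 ± 0.12). Its decoy receptor Il1r2 was at 101, 91.3 and 123 CPM against 2144, 2521 and 2231 CPM (4.46 ± 0.10), so the ligand and its decoy lay on the same side. Cytokine receptors were called higher in 7 of 25 and lower in 4, with a median of 0.60 that turned to -0.26 with library size alone. Those counts were not far from the shares of all genes, so nothing is read from that list as a whole. Il23a, the p19 chain of IL-23, stood on 20 UMIs in all of hashtags 2, 4 and 5, at 0.85, 0.855 and 2.86 CPM against 27, 44.9 and 26.6 CPM (4.44 ± 0.37). Cxcl2 was at 35.7, 29.1 and 34.7 CPM against 684, 633 and 624 CPM (4.29 ± 0.09).

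Receptors for chemokines split. Of 16 migration receptors 7 were called higher, among them Ccr1, Ccr7 and Cxcr4, and 4 lower (Ccr2, Ccr6, Ccr9 and Cx3cr1), with a median of 0.30 on the TMM scale and -0.55 with library size alone. Among all genes 16.8% were called higher and 21.8% lower, so the lower count lay near that share. With each hashtag left out in turn the TMM median ran from 0.15 to 1.76, so nothing is read from it. Ccr7 was at 25.5, 20.7 and 28.1 CPM in hashtags 2, 4 and 5 and at 487, 532 and 389 CPM in hashtags 6, 8 and 9 (4.25 ± 0.13). Ccr6, the receptor for Ccl20, was at 49.5, 48.3 and 47.8 CPM against 8.06, 3.36 and 5.48 CPM (-3.08 ± 0.19). The gate kept Fscn1, a marker of migratory dendritic cells, at 1 UMI or less, and Fscn1 was at 19.8 to 20.7 CPM against 13.4 to 14.6 CPM. That limit was part of the selection, so nothing is read from the level of Fscn1.

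Of 18 costimulatory and coinhibitory ligands 9 were called higher and 0 lower, beside 16.8% and 21.8% of all genes. Cd86, which engages CD28, was at 330.5, 266 and 335 CPM in hashtags 2, 4 and 5 and at 4573, 5057 and 4249 CPM in hashtags 6, 8 and 9 (3.90 ± 0.09). Cd83, a maturation marker, was at 200.5 to 298 CPM against 2996, 3189.8 and 2684 CPM (3.57 ± 0.12). Tnfsf9, the ligand of 4-1BB, was at 6.8, 6.41 and 6.42 CPM against 174, 211 and 154 CPM (4.77 ± 0.15).

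Genes of MHC class II presentation were called higher in 10 of 17 and lower in 1, H2-Eb2, beside 16.8% and 21.8% of all genes. H2-Aa was at 2611, 2812 and 2664 CPM in hashtags 2, 4 and 5 and at 9642, 10419.9 and 9274 CPM in hashtags 6, 8 and 9 (1.86 ± 0.06). The sort itself required MHC-II, so both trios had to hold these genes. Proteases of the endosome went with them: Lgmn, the asparagine endopeptidase, had a log2 fold change of 3.91 ± 0.11, Ctsb, cathepsin B, was at 89.8 to 114 CPM against 538 to 614 CPM, and 12 of 23 lysosomal genes were called higher against 2, Ctse and Ctsl, lower. For MHC class I presentation 5 of 17 were called higher and 1, Nlrc5, lower, and the list median of 0.64 turned to -0.22 with library size alone.

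TGF-beta restrains immune cells, and of 18 genes of its pathway 9 were called higher and 1, Tgfbi, lower. Among all genes 16.8% were called higher and 21.8% lower. Lrrc32, which encodes GARP, the anchor of latent TGF-beta, rested on 10 UMIs in hashtags 2, 4 and 5, at 0.637, 0.641 and 0.952 CPM against 28, 21.9 and 21.3 CPM (4.98 ± 0.27). The brakes Skil, Smad7, Tgif1 and Smad6 were among those called higher, Skil at 73.5 to 83 CPM against 637 to 729.6 CPM. Of 9 genes of the Ahr and tryptophan pathway 4 were called higher and 4 lower. Ahr, a receptor for dietary and microbial ligands, was at 81.9 to 107 CPM against 1065 to 1167 CPM (3.50 ± 0.09), whereas Il4i1, an enzyme that degrades amino acids, was at 66.9 to 68.2 CPM against 14.5 to 16.4 CPM (-2.14 ± 0.09). Retinoic acid genes were called higher in 5 of 15 and lower in 1, Rarg, a retinoic acid receptor, at 19.8 to 28.2 CPM against 0.878 to 1.48 CPM (-4.59 ± 0.22). That list had a median of 0.38 and, with library size alone, of -0.48.

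Transcription factors of dendritic cells were called higher in 15 of 35 and lower in 6, with a median of 0.78 that turned to -0.08 with library size alone. St18, a zinc finger protein, was at 36.5, 29.7 and 50.2 CPM in hashtags 2, 4 and 5 and at 614, 679 and 654 CPM in hashtags 6, 8 and 9 (4.07 ± 0.13). Prdm1, which encodes Blimp-1, was at 15.1, 12.2 and 10.7 CPM against 168, 209 and 151 CPM (3.78 ± 0.15). The lower ones were Runx2, Ikzf1, Tbx21, Bcl11a, Maf and Hes1. C-type lectin receptors likewise divided, with 10 of 23 called higher and 4 lower and a median of 0.83 that turned to -0.03. Among them Cd209a, the mouse relative of DC-SIGN, was at 33.6 to 47.7 CPM against 227 to 258 CPM, and Clec4a3, an inhibitory receptor, at 16.7 to 29.7 CPM against 0.721 to 1.28 CPM.

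Metabolic lists had called genes on both sides, beside 16.8% called higher and 21.8% lower among all genes. Of 23 sterol genes 11 were called higher, among them Fdft1, squalene synthase (2.65 ± 0.12), and 2, Dhcr7 and Abcg1, lower. Of 18 glycolysis and hypoxia genes 9 were called higher, such as Hk2, hexokinase 2, at 91.3 to 122 CPM against 465 to 536 CPM, and 1, Pfkl, lower. Of 18 prostaglandin and leukotriene genes 10 were called higher and 1, Ptgir, lower. Ptgs2, the inducible cyclooxygenase, was at 37.2, 33.1 and 38.5 CPM against 541 to 745 CPM (4.18 ± 0.12). Of 80 ribosomal protein genes 71 were called higher and 1, Rpl39l, lower, with a median of 1.17 that was 0.31 with library size alone. None of 13 mitochondrially encoded genes was called, and their median was -0.35.

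Innate sensors were called at shares near those of all genes (16.8% higher and 21.8% lower), with 4 of 23 called higher (Cd14, Ticam1, Nod2 and Nlrp3) and 7 lower (Tlr1, Tlr4, Tlr5, Tlr9, Ticam2, Nod1 and Naip2) and a median of 0.12, which turned to -0.74 with library size alone. With each hashtag left out in turn that median ran from -0.37 to 0.32 on the TMM scale, so nothing is read from it. Nod1 and Nod2, which both sense fragments of bacterial cell walls, lay on opposite sides. Nod1 was at 84.3, 75.2 and 74.5 CPM in hashtags 2, 4 and 5 and at 8.62, 9.48 and 10.6 CPM in hashtags 6, 8 and 9 (-3.01 ± 0.10). Nod2 was at 29.9, 28 and 25.9 CPM against 143, 143 and 127 CPM (2.30 ± 0.09). Nlrp3, the sensor of an inflammasome that matures Il1b protein, was at 56.4 to 75 CPM against 794 to 942 CPM (3.77 ± 0.10).

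**Figure D3:**
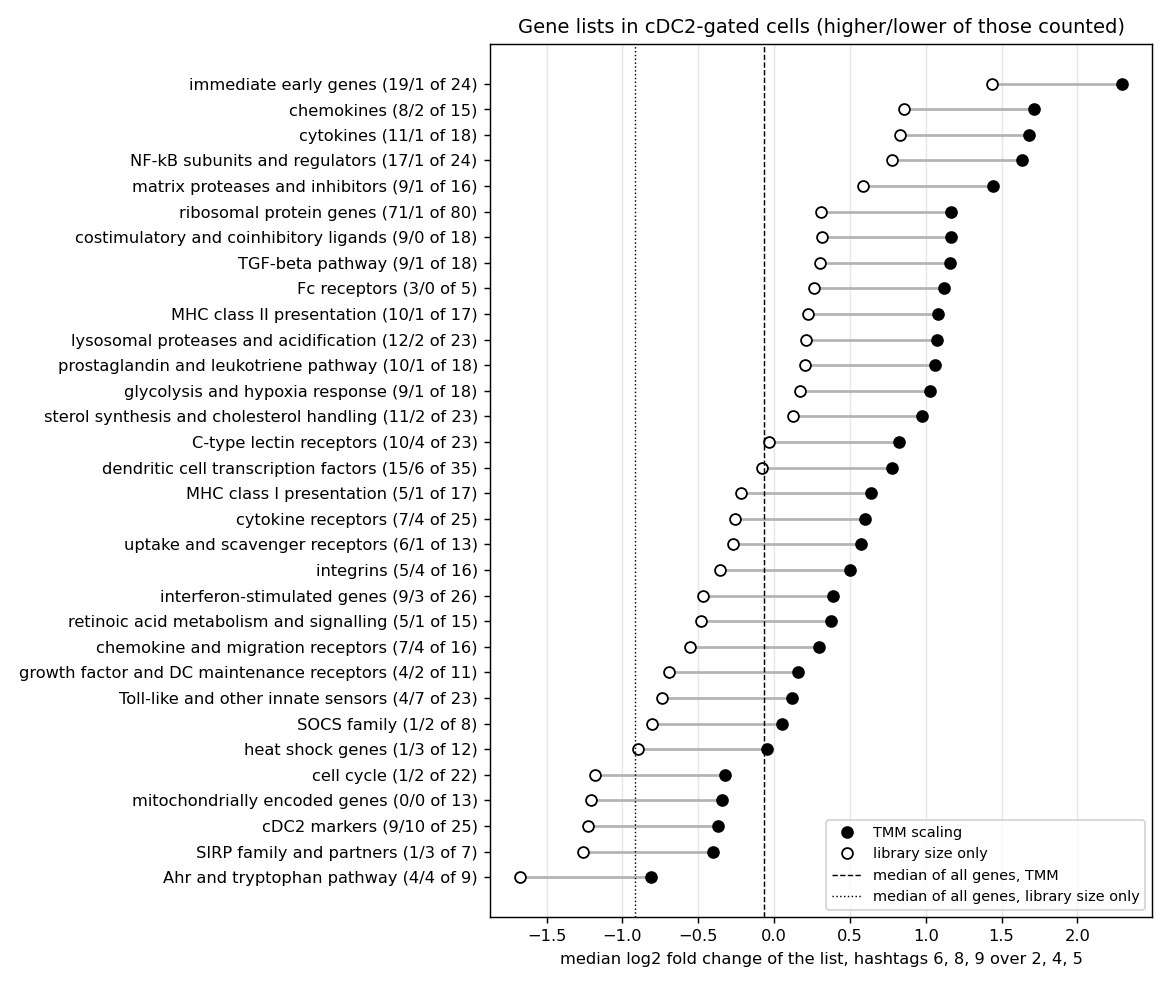
Points give the median log2 fold change of each gene list between hashtags 6, 8, 9 and 2, 4, 5, filled with TMM scaling and open with library size only, and brackets give the members called higher and lower of those counted. Immediate early genes lie farthest to the right at 2.30, and library size alone shifts every list and the median of all genes to the left.

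Summed counts do not say whether all cells or some cells differ, so each cell was also thinned to 3000 UMIs and the cells with a UMI were counted (412, 417, 330, 1201, 1028 and 1958 cells in hashtag order, with 22 to 47 shallower cells left out of each). Intervals are 95% Wilson intervals, which cover counting error only. Tnip3 was seen in 13.8%, 17.7% and 16.7% of cells in hashtags 2, 4 and 5 and in 78.4%, 79.8% and 78% in hashtags 6, 8 and 9. In cDC1-gated cells of the same hashtags (Xcr1 plus Clec9a of at least 2 and Sirpa of at most 1), Tnip3 was seen in 8.5% to 9.8% and 14.1% to 17%. In hashtags 2, 4 and 5 it was thus seen in more cDC2-gated than cDC1-gated cells. Its summed level there was 43.5 to 54.5 CPM in cDC2-gated and 22.3 to 25.8 CPM in cDC1-gated cells. Cd86 was seen in 54.2% to 60.6% of cells and in 98.8% to 99% of cells, and thus in nearly every cell of hashtags 6, 8 and 9. Il1b went from 34.5% to 42.7% up to 79.7% to 84.8%.

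Ccr7 was seen in 8.7% to 10.3% of cells in hashtags 2, 4 and 5 and in 37% to 43% in hashtags 6, 8 and 9, so most cells of the latter had no Ccr7 UMI at this depth. Plet1 (2.1% to 5.3% against 25.1% to 30.8%), Tnfsf9 (2.1% to 2.2% against 24% to 29.5%) and Itgae (1.2% to 5.2% against 24.2% to 25.5%) were likewise seen in a minority at this depth. Unthinned cells of hashtags 6, 8 and 9 had Ccr7 in 56.8% to 63.9% and Itgae in 54% to 59.8%. Tnfsf9 was in 48.9% to 56.9% of them and Plet1 in 44.2% to 49.9%. A minority share after thinning therefore does not mean that only a subset of cells carried the gene. Itgae was more frequent in cDC1-gated cells, at 29.7% to 32.1% and 41.2% to 47.4%. Dscam was seen in 75.2%, 70.5% and 80.9% of cells and in 5.6%, 3.9% and 4.6%, the latter close to the 2.3% to 6.1% of cDC1-gated cells. S100a4 (76.4% to 79.9% against 9.1% to 14.1%) and Sirpb1a (37.3% to 50.4% against 5.5% to 6.7%) showed the same order. Ccr6 was a minority gene in both trios, at 17.6% to 18% and 0.8% to 1.2%.

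**Figure D4:**
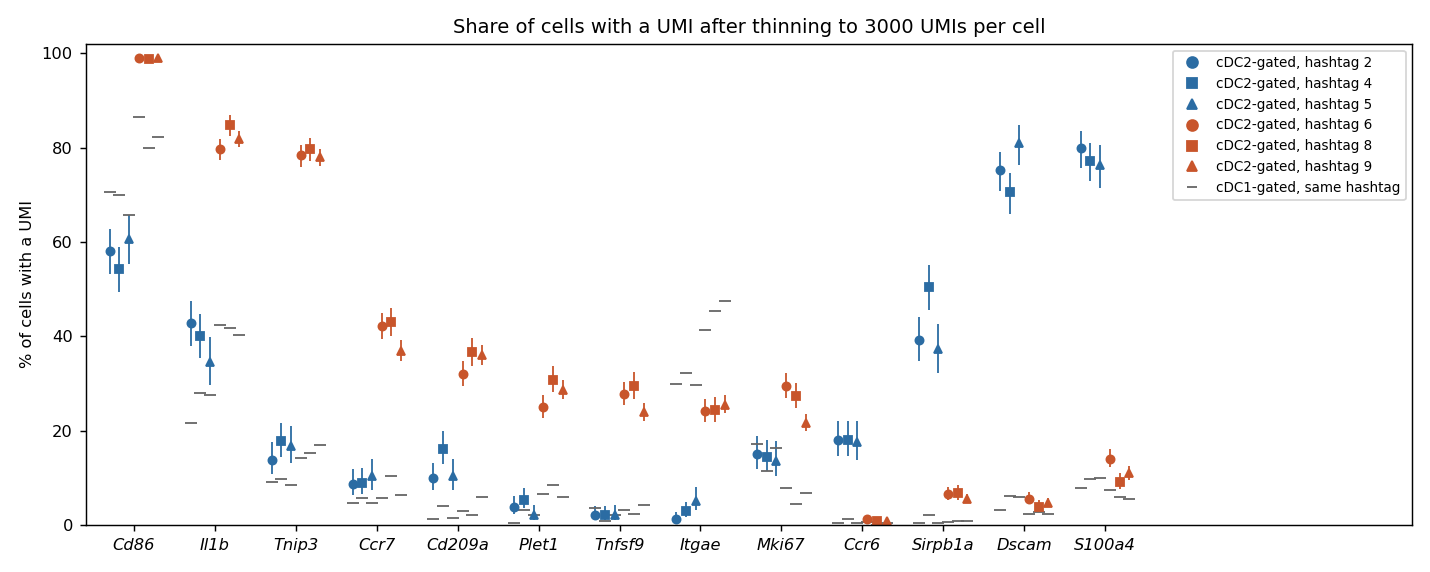
Points give the share of cDC2-gated cells of each hashtag with at least 1 UMI after thinning to 3000 UMIs per cell, with 95% Wilson intervals, and grey dashes give cDC1-gated cells of the same hashtag. Cd86 reaches 98.8% to 99% in hashtags 6, 8 and 9, while Dscam and S100a4 are frequent only in hashtags 2, 4 and 5 among the groups drawn.

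Within a hashtag UMIs of leading genes of both trios were found together under some cell barcodes. Of the cells of hashtags 2, 4 and 5 with a Tnip3 UMI, 59.6%, 68.9% and 76.4% also had a Dscam UMI, beside 77.7%, 70.8% and 81.8% of those without Tnip3. In hashtags 6, 8 and 9 Dscam was seen in 3.29%, 3.17% and 3.27% of cells with Tnip3 and in 13.8%, 6.73% and 9.53% of those without. Counting 5 genes of each side, chosen after their values were seen (Tnip3, Cd86, Il1b, Nr4a3 and Rel against Dscam, S100a4, Sirpb1a, Slamf6 and Ripor2), 98.6%, 99.8% and 99.2% of cells in hashtags 6, 8 and 9 had more of the first set. In hashtags 2, 4 and 5 that held for 30.3%, 24.5% and 33% of cells, and 46.8%, 52% and 47.9% had more of the second set. In hashtags 2, 4 and 5 the median cell held 2 genes of the first set and 3 of the second, and in the other trio it held 5 and 0. Since the genes were picked for the trio pattern and differ in abundance, these shares are a description and do not sort cells into kinds. RNA free in the droplets, described below, held the first set at 692 to 1846 plain CPM. Their means in hashtags 2, 4 and 5 were 49 to 497 TMM-scaled CPM. For the second set free RNA was at 25.3 to 231 plain CPM, beside means of 87.3 to 977. The part of free RNA in the shares was not tested.

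Cycling genes gave a mixed picture. Mki67, a marker of dividing cells, was at 70.5 to 87.9 CPM in hashtags 2, 4 and 5 and 168 to 196 CPM in hashtags 6, 8 and 9 and was seen in 13.6% to 15% and 21.6% to 29.5% of thinned cells. Yet of 22 cell cycle genes only Mki67 was called higher, and Ccnb1 and Rrm2 were called lower. Both counts lay below the shares of all genes, 16.8% higher and 21.8% lower. The list median was -0.32.

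The same contrast was then set against cDC1-gated cells of the same hashtags, which share the replicate and the droplet run. Their median UMI count was 9359 to 10840 in hashtags 2, 4 and 5 and 16911 to 17935 in hashtags 6, 8 and 9, so they too differed in depth. That test asks whether the trio difference in cDC2-gated cells departs from that in cDC1-gated cells (edgeR quasi-likelihood test within hashtags, Benjamini-Hochberg adjusted p under 0.05). Since the trios were chosen on these data, its p-values do not stand for an independent choice of groups. Those of named genes describe the fit and are not support for a difference between the trios. Of 11868 genes, 2686 (22.6%) passed with a more positive and 1747 (14.7%) with a more negative difference in cDC2-gated cells. Genes to name were taken from those with a mean of at least 50 CPM in a trio of cDC2-gated cells. A gene could meet that limit through its higher trio alone, and genes expressed mainly in cDC1-gated cells could not be named. Of the genes within that limit, Dtx4, a relative of Dtx1, had the most positive interaction (4.19 ± 0.25 log2, edgeR adjusted p = 2.38e-09). Dtx4 was at 1.9 to 3.61 CPM against 61.9 to 73.6 CPM in cDC2-gated cells and at 8.05 to 9.55 CPM against 10.7 to 12.6 CPM in cDC1-gated cells. The Notch-linked ligases Dtx1 and Dtx4 thus lay on opposite sides among cDC2-gated cells.

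Zfp366, a transcription factor known as DC-SCRIPT, went in opposite directions in the gates. In cDC2-gated cells it was at 241, 234 and 233 CPM in hashtags 2, 4 and 5 and at 1379.98, 1417 and 1286 CPM in hashtags 6, 8 and 9, and in cDC1-gated cells at 438 to 502 CPM and 215 to 264 CPM (interaction 3.47 ± 0.09, edgeR adjusted p = 1.24e-12). Mmd, a membrane protein of macrophage differentiation, was at 20.5 to 27.2 CPM against 372 to 457 CPM in cDC2-gated cells and at 22.8 to 30.7 CPM against 32.5 to 35.8 CPM in cDC1-gated cells (3.68 ± 0.17, edgeR adjusted p = 1.54e-10). Cdkn1a, the cell cycle inhibitor p21, (3.53 ± 0.35), Gm49662 (4.04 ± 0.23) and Gm12865 (3.85 ± 0.74) made up the 6 most positive.

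On the negative side Dscam stood out by level: cDC1-gated cells held it at 5.36 to 20.8 CPM and 7.09 to 8.53 CPM, far below cDC2-gated cells of hashtags 2, 4 and 5 (interaction -3.88 ± 0.32, edgeR adjusted p = 9.34e-08). Cacnb2, a calcium channel subunit, overlapped between the trios in cDC1-gated cells, at 125 to 175 CPM and 132 to 165 CPM, whereas in cDC2-gated cells it was at 65.2 to 93 CPM against 3.51 to 6.94 CPM (interaction -3.95 ± 0.19, edgeR adjusted p = 2.12e-10). Tmem132c (-4.27 ± 0.63), Pard3b (-4.10 ± 0.61), Dpp10 (-3.76 ± 0.39) and Clec4a1 (-3.63 ± 0.38) were the others. In cDC1-gated cells Tmem132c and Clec4a1 had too few counts for a trio fold change. Pard3b was at 0.805 to 6.86 CPM there and Dpp10 at 1.98 to 5.67 CPM. The interactions of these genes thus rest on low counts in cDC1-gated cells.

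The interaction was also taken for genes chosen after their values were seen. It was 2.995 ± 0.13 for Tnip3, 2.40 ± 0.15 for Il1b, 2.21 ± 0.09 for Cd86 and -2.39 ± 0.13 for S100a4, with edgeR adjusted p of 9.74e-11, 4.75e-09, 7.28e-11 and 8.17e-10. Since these genes were picked on their values, their p-values are not read as support. In cDC1-gated cells the log2 fold change was 2.16 for Tnip3, 2.23 for Il1b and 1.68 for Cd86, while S100a4 overlapped between the trios there, at 25.2 to 40.3 CPM against 18.8 to 27.4 CPM. Of 24 NF-kB genes 19 passed as more positive and 2 as more negative, beside 22.6% and 14.7% of all genes, with a median of 1.08. For 24 immediate early genes the counts were 7 and 9, with a median of -0.07. Atf3 did not pass (0.21 ± 0.12, edgeR adjusted p = 0.175), at 42.1 to 72.8 CPM against 735 to 992 CPM in cDC1-gated cells. Nr4a3 (1.76 ± 0.14) and Junb (0.50 ± 0.09) passed as more positive and Fos (-1.12 ± 0.16) and Klf2 (-3.14 ± 0.16) as more negative. Klf2, a factor of quiescent cells, was lower in hashtags 6, 8 and 9 in cDC2-gated cells, at 54.6, 55.1 and 80.4 CPM against 14.4, 25.1 and 37.2 CPM, and higher in cDC1-gated cells, at 72.7 to 133 CPM against 253 to 382 CPM.

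**Figure D5:**
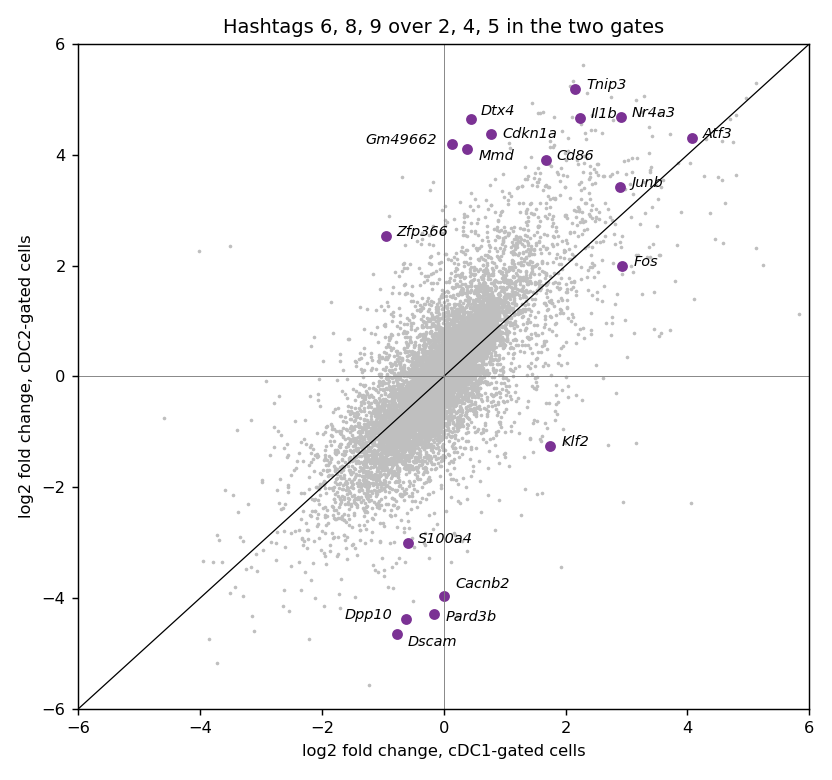
Each grey point is a gene, with the log2 fold change of hashtags 6, 8, 9 over 2, 4, 5 in cDC1-gated cells on the x axis and in cDC2-gated cells on the y axis, and the line marks equal values. Purple points are the named interaction genes with a value in both gates and 9 genes chosen after their values were seen: Dtx4, Cdkn1a, Mmd, Gm49662 and Zfp366 lie above the line and Cacnb2, Pard3b, Dpp10 and Dscam below it.

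Markers of other cells that the sort could hold were summed as plain CPM. The 9 macrophage markers summed to 318 to 362 CPM in hashtags 2, 4 and 5 and to 159 to 190 CPM in hashtags 6, 8 and 9, with Adgre1, the antigen F4/80, at 253 to 297 CPM and 78.3 to 85 CPM. On the TMM scale the macrophage sums were 238 to 267 CPM and 211 to 263 CPM and overlapped, and 1 marker was called higher and 0 lower. The 5 monocyte markers summed to 584 to 663 CPM and 1381 to 1464 CPM, nearly all of it Plac8, and Ly6c2 was at 0 in 5 hashtags. Of these markers 1 was called higher and 1 lower, and free RNA held their sum at 1340 CPM. Ccr2 went the other way, at 28.1 to 46.4 CPM and 5.2 to 5.65 CPM. The 7 T cell markers summed to 10.9 to 39.8 CPM and 3.94 to 5.06 CPM. Of the 10 markers of migratory dendritic cells, 4 were called higher and 3 lower, and they summed to 591 to 703 CPM and 763 to 882 CPM. Without Ccr7 the other 9 summed to 563 to 666 CPM and 471 to 516 CPM in plain CPM, and to 416 to 500 and 627 to 684 on the TMM scale, so their direction turned with the scaling. With cells that had any Ccr7 left out, 1708 genes were called higher and 2194 lower. The part of these cells in the results was otherwise not tested.

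Epcam, chosen after its values were seen, an adhesion molecule of epithelium that some dendritic cells also make, was seen in 4.84%, 4.96% and 6.93% of unthinned cells in hashtags 2, 4 and 5 and in 62.3%, 65.4% and 62.6% in hashtags 6, 8 and 9. The 10 highest cells held 3.56% to 6.57% of its UMIs in the latter. The other 8 epithelial markers, among them Krt8 and Vil1, were each at 5.09 CPM or lower. Of the sequences added to the reference, tdTomato was at 22.3, 29.3 and 33.3 TMM-scaled CPM against 144, 227 and 247 (2.87 ± 0.20) and in 18.2% to 25.1% against 31% to 39.8% of unthinned cells. The others were near 0 and did not follow it. hCD2 was at 0.287 to 0.632 against 0.0601 to 0.143 plain CPM, and iCre at 0 except for 0.0722 in hashtag 9. RNA free in the droplets, taken from barcodes outside the assignment table with 10 to 100 UMIs, held Tnip3 at 692, Il1b at 1545 and Cd86 at 1846 plain CPM, all above their levels in hashtags 2, 4 and 5. It held tdTomato at 92.1 plain CPM, beside 30.1 to 44.2 in hashtags 2, 4 and 5 and 109 to 185 in hashtags 6, 8 and 9. Counting only genes at 2 or more times their free RNA level left 467 higher and 1380 lower. That limit set TMM-scaled trio means against free RNA in plain CPM, so it mixed scales. TMM scaling lowers levels of hashtags 2, 4 and 5 and raises those of hashtags 6, 8 and 9 relative to plain CPM.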

How the data were processed

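The deposited matrix holds raw UMI counts per gene and barcode, made with Cell Ranger 8.0.1 on mm10 per the submitters' processing notes; strand and intron settings are not given in the sources used here. A deposited table gives each of 27679 barcodes a hashtag call with a probability, a fraction from 0 to 1 per the file headers. Of these, 19239 carried a single hashtag, and 4815 called multiplets, 1706 blanks and 1919 unassigned barcodes were left out; no further doublet caller was run, and there is 1 library, so no barcodes are shared between libraries. The members, trios and gene lists were chosen with earlier results of these data known.

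Counts were summed per hashtag, 3164515 to 27685645 UMIs, filtered with filterByExpr, scaled by TMM and fitted with edgeR 4.0.16 quasi-likelihood models in R 4.3.3. DESeq2 1.42.0 was an alternative. SE is the size of the log2 fold change over the square root of F. Called genes differed by at least 2-fold with no overlap between trios. The interaction model had 12 summed libraries. Models were tested on simulated data.

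Named genes were up to 4 called members per list with the largest change and at least 20 CPM, and the 12 highest and 12 lowest with at least 50 CPM. Gate genes, cDC2 markers, added sequences, and the 6 most positive and 6 most negative interactions were also named. These interactions were ranked only among passing genes with a mean of at least 50 CPM in a trio of cDC2-gated cells. Gm12865, Gm17056, Gm42477 and Gm49662 are predicted genes, and Sirpb1, Clec4a and Cd209 genes have near copies, so their counts are uncertain. Each hashtag is 1 replicate, and nothing in the labels shows how cells were pooled into one.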

Additional observations from a re-analysis of the deposited data

Results flagged for a closer look

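The trio difference in cDC2-gated cells departed from that in cDC1-gated cells of the same hashtags, by the edgeR interaction test, for 2686 genes in the positive and 1747 in the negative direction. Among the named genes the interaction on the log2 scale was 4.19 for Dtx4, 4.04 for Gm49662, 3.85 for Gm12865, 3.68 for Mmd, 3.53 for Cdkn1a and 3.47 for Zfp366. It was -4.27 for Tmem132c, -4.10 for Pard3b, -3.95 for Cacnb2, -3.88 for Dscam, -3.76 for Dpp10 and -3.63 for Clec4a1. Of the genes chosen after their values were seen, it was 3.0 for Tnip3, 2.40 for Il1b, 2.21 for Cd86, 1.76 for Nr4a3 and 0.50 for Junb. On the negative side it was -1.12 for Fos, -3.14 for Klf2 and -2.39 for S100a4.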

How the results depend on the processing

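Against 2131 genes called higher, 1200 were called with cells thinned before the gate, 846 with library size alone, 3198 without a filter on low counts, 1024 among loci of at most 20000 bases, 467 among genes at 2 or more times their free RNA level, and 1839 to 2456 with each hashtag left out in turn. Against 2763 lower, these were 1508 with thinning before the gate, 5969 with library size alone, 1150 for short loci, 1380 against free RNA, and 2367 to 2999 with hashtags left out. The interaction passed as positive for 2686 genes, for 1021 and 1453 with thinning before and after the gate, for 1195 with library size alone, for 1808 with DESeq2, and for 2356 to 2505 with a hashtag left out. It passed as negative for 1747, for 582 and 799 with thinning before and after the gate, for 1113 without cycling cells, for 4256 with library size alone, for 969 with DESeq2, and for 1318 to 1549 with a hashtag left out. Smaller counts from thinning, short loci and free RNA follow in part from fewer UMIs or genes; otherwise the cause was not tested. The log2 fold change of Csf1r turned from -1.14 to 0.0717 with thinning before the gate, and the interaction of Atf3 from 0.21 to -0.17 with library size alone. The alternatives for short loci, free RNA and thinning after the gate were chosen after seeing the data. No paired analysis was possible because the trios share no replicate numbers in the labels. Thinned cells hold 3000 UMIs, which limits genes of low level.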
